A study of Rattus norvegicus with 18 samples.

Results

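The ubiquitin and proteasome system of the rat dorsal root ganglion (DRG) was described here through 66 genes, out of 26172 genes listed and 17930 tested at the deepest sequencing run. They were taken by their names: proteasome subunits (Psma to Psme), ubiquitin-conjugating enzymes (Ube2), ligases and ligase parts (Ube3, Ube4, Ubr, Herc, Nedd4, Rnf, Trim, Cul, Fbx, Klhl, Asb), proteases that remove ubiquitin or SUMO (Usp, Otud, Senp) and UBX proteins. The names came from a list of the study that was available only in part. That part pairs 1994 of the listed genes with a symbol, so genes outside it could not be chosen, whatever their name. All 66 genes with such a name had reads in all 6 libraries and passed the filter of reads in at least 3 libraries. They were taken by name and not by their change after SNT. The naming rule was, however, set with earlier results of these data known. The list itself holds only genes with enough intronic reads that overlap no other gene. Its filter on intronic reads could be passed through the SNT libraries alone. Genes of the list have more reads than most: the median normalised count was 1237 over the list and 240 over all genes tested. A further 2 symbols of the list that a spreadsheet had turned into dates in March were not counted.

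The study compared L5 DRG of male Wistar rats whose L5 spinal nerve had been cut 7 days earlier (spinal nerve transection, SNT) with L5 DRG of naive Wistar rats. Every sample, 3 per group, held the ganglia of several rats, so that a value stands for a pool and not for an animal. The age of the rats is not given in the sources used here, and no sham operated group was analysed. Each poly(A) enriched library was sequenced in 3 runs, named 17 M, 25 M and 50 M after their read depth, which are technical replicates of the same 6 libraries. The 50 M run held 15000789 to 17480115 exonic reads per SNT library and 18588873 to 19031166 per naive library, and values below are from this run unless another is named. They are normalised counts, that is, read counts divided by the size factor of the library. The 66 genes had between 37 and 26320 reads in a library at this depth.

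Ubiquitin is attached to proteins by a cascade of an activating enzyme (E1), a conjugating enzyme (E2) and a ligase (E3) that recognises the substrate, and chains of ubiquitin mark many proteins for the 26S proteasome. The proteasome consists of the 20S core particle, which cuts the protein, and the 19S regulatory particle, which binds, unfolds and strips it of ubiquitin. Deubiquitinases remove ubiquitin again. In neurons this system is known for its part in synapse turnover, axon growth and the degeneration of cut axons.

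The 66 genes changed in both directions, and by small amounts. At a false discovery rate (FDR) of 0.1 (limma on log2 normalised counts, two-sided, Benjamini-Hochberg adjustment over all genes tested), 42 of the 66 genes (63.6%) were called, with 31 lower and 11 higher in SNT. Of all genes tested, 58.5% were called, 29.2% higher and 29.4% lower. Of the 1994 genes of the symbol list, all of which passed the filter, 71.4% were called, 35.2% higher and 36.2% lower. The share of called genes therefore lay between these backgrounds, while 47.0% of the ubiquitin and proteasome genes were lower and 16.7% higher. Their median log2 fold change was -0.15, against 0.01 over all genes tested, a median that the size factors hold near 0 by construction. In 50 of the 66 (75.8%) the values of the 3 SNT libraries did not overlap those of the 3 naive libraries, compared with 62.1% of all genes tested and 75.8% of the genes of the symbol list. These shares of all genes and of the list are also the background for the counts of each role group below.

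The split between falls and rises depended on how libraries were scaled. With libraries scaled to equal totals of reads, the median of all genes shifted up by 0.16 on the log2 scale, and 21 of the 66 genes were lower and 22 higher. Under that scaling 65.2% of the 66 genes, 58.9% of all genes tested and 71.5% of the genes of the symbol list were called. The median log2 fold change was then 0.008 over the 66 genes, still below the 0.16 over all genes tested. Of the 31 lower calls 10 were lost, 11 genes without a call became higher, and none changed from lower to higher. Relative to the other genes, as the size factors measure it, falls were thus more frequent than rises, whereas relative to the total they were not. The shares of all genes tested that were lower or higher with equal totals are not given here. Counts by direction under that scaling, here and below, therefore stand without a background. Leaving out a library moved the count of higher genes from 11 to 6 without SNT replicate 3 or naive replicate 2, and to 7 without naive replicate 1. Calls in either direction also became fewer in these 3 fits. They were 50.0%, 47.0% and 48.5% of the 66 genes, in the order named, and 47.8%, 48.9% and 48.2% of all genes tested.

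Few changes were large. Trim9 alone had a log2 fold change of 1 or more in size, compared with 23.2% of all genes tested. The 2 sets were not matched for reads: the median normalised count was 1946 over the 66 genes and 240 over all genes tested. The ratio of the SNT mean to the naive mean ranged from 0.319 (Trim9) to 1.55 (Rnf19b), with a median of 0.763 in the lower and 1.31 in the higher genes. The 24 genes without a call had log2 fold changes of -0.24 to 0.22, and for 20 of them the 95% interval lay within 0.5 of 0, so that a change beyond that size was outside the interval.

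**Figure D1:**
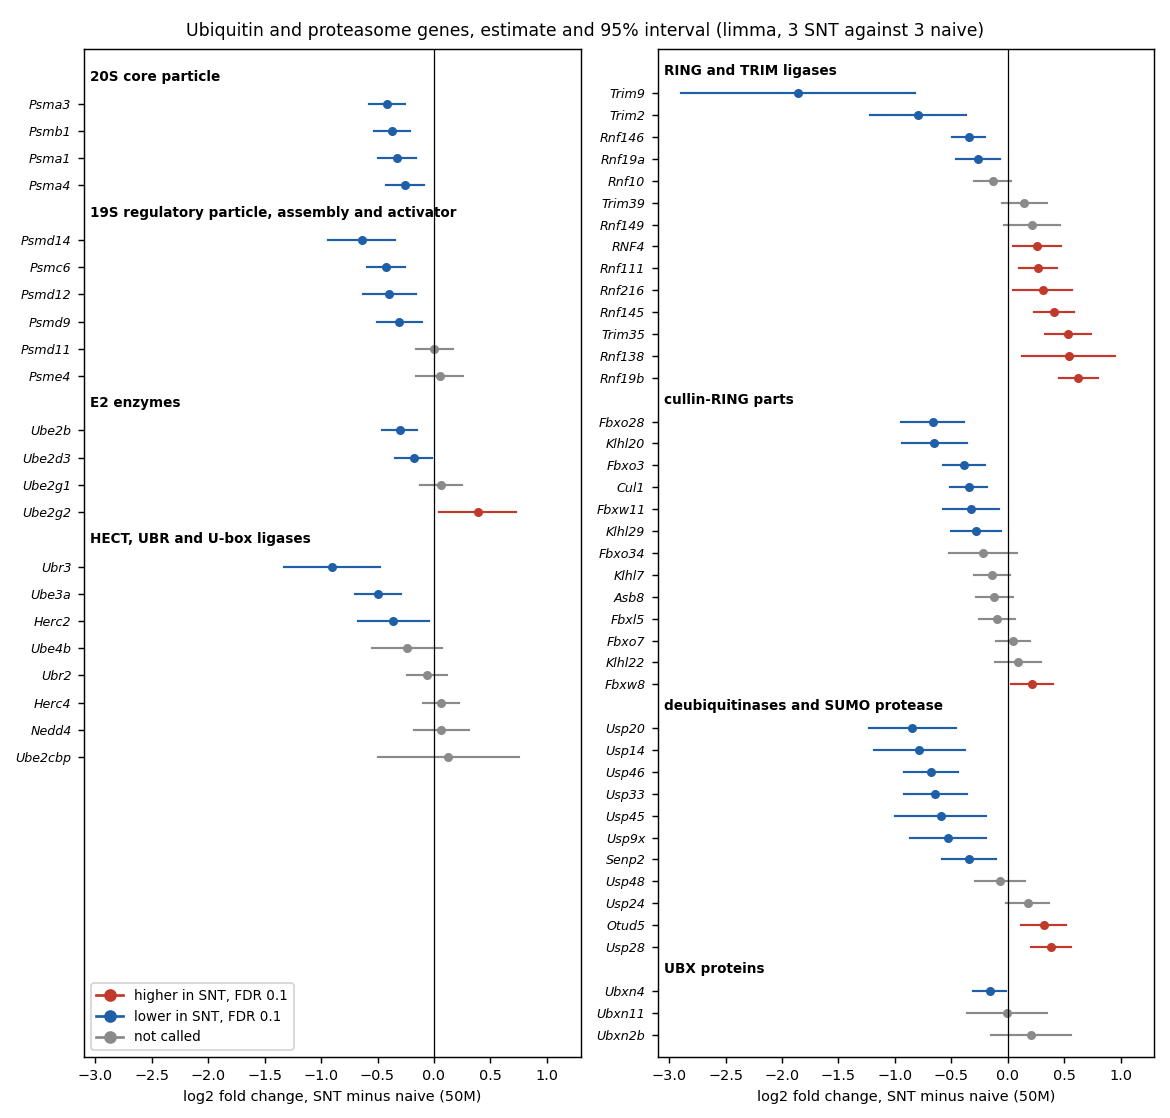
Log2 fold change of 63 of the 66 genes (SNT minus naive, 50 M run, x axis) with its 95% interval from limma (lines), grouped by role, in blue for genes lower in SNT, red for genes higher and grey for genes without a call at FDR 0.1. All called proteasome genes lie to the left of 0, most called RING and TRIM ligases to the right, and Trim9 lies farthest from 0 at -1.86.

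The genes of the proteasome itself were lower or had no call. Of the 10 proteasome genes 8 were lower and none higher, with a median log2 fold change of -0.35, and their calls held without each library in turn. In each of the following sentences, values are normalised counts in replicates 1, 2 and 3 of each group. Psma3, an alpha-ring subunit of the core particle, had 956, 945 and 972 in naive rats and 741, 719 and 695 after SNT. Psmb1, a beta-ring subunit, had 3551, 3658 and 3647 in naive rats and 2706, 2927 and 2762 after SNT. Psma1, another alpha-ring subunit, had 2376, 2614 and 2428 in naive rats and 2026, 1915 and 1968 after SNT. In these 3 genes every SNT library lay below every naive library, and the SNT libraries differed little among themselves.

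Psma3 fell from 957 ± 13.7 to 718 ± 23.0 (SD, n = 3 libraries per group), a ratio of 0.75 and a log2 fold change of -0.41 (SE 0.066, adjusted p = 0.0046, limma). Psmb1 fell to a ratio of 0.773 (log2 fold change -0.37, adjusted p = 0.00623) and Psma1 to 0.797 (-0.33, adjusted p = 0.00951). Psma4, the fourth core subunit of the list, fell least, to 0.838 (-0.26, adjusted p = 0.0226). The 4 core subunits therefore fell by similar proportions at different levels of reads.

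The promoters of the 4 core subunits are shown because these genes moved together, and that of Trim9 because it had the largest change. Each is the stretch from 250 bases before to 50 bases after the gene start, 5′ to 3′ on the strand of the gene, from RefSeq on the assembly GRCr8, which is not the build the reads were aligned to. Capitals mark 3 motifs searched on either strand: GGGCGG (the GC box), CCAAT (the CCAAT box) and TGACNNNGC (the core of the antioxidant response element). No match overlaps another in the 5 promoters.
Psma1, chr1:177887808-177888107, minus strand: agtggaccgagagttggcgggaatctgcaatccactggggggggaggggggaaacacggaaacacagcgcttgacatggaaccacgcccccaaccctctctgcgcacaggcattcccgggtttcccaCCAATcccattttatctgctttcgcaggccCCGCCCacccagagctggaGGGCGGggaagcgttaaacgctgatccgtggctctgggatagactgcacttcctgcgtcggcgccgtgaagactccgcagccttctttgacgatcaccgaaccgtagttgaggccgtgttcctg
Psma3, chr6:95219499-95219798, plus strand: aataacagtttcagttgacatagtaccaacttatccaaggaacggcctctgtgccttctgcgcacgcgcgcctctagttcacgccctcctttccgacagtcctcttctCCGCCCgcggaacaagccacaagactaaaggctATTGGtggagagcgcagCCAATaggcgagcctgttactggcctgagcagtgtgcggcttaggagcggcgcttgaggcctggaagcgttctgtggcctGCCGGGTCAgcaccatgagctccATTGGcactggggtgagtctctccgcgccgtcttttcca
Psma4, chr8:64236270-64236569, plus strand: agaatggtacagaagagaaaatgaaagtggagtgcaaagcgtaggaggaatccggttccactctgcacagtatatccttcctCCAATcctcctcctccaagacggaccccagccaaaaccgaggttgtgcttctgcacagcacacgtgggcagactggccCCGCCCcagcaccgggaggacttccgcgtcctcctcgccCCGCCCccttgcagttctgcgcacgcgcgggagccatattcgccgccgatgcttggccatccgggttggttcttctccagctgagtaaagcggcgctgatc
Psmb1, chr1:65134721-65135020, minus strand: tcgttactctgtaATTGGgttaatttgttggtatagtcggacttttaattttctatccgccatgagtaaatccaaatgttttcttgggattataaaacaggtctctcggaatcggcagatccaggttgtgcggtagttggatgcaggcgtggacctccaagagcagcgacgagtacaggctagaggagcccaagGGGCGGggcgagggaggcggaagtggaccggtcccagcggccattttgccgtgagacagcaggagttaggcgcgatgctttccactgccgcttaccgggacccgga
Trim9, chr6:94592502-94592801, minus strand: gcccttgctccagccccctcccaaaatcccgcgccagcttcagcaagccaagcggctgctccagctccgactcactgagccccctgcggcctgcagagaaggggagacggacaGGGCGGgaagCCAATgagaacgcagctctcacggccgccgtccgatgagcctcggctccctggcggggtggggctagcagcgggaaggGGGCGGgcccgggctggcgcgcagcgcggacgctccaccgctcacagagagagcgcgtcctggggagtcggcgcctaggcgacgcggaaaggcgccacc

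All 5 promoters hold a GC box and a CCAAT box, and Psma3 alone of the 5 holds TGACNNNGC, whose match ends 4 bases before the gene start. Promoters of this kind were matched for 51 of the 66 genes. Of these, 36 hold GGGCGG (70.6%, against 70.4% for 1605 genes of the symbol list and 34.9% of all 27457 promoters). CCAAT was present in 18 (35.3%, against 36.9% and 37.7%) and TGACNNNGC in 8 (15.7%, against 15.1% and 12.2%). For all 3 motifs the shares of the 51 promoters are near those of the genes of the symbol list. Among the proteasome genes TGACNNNGC was also present in the promoters of Psmd9, which was lower, and Psme4, which had no call.

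Of the 6 genes of the regulatory particle, its assembly and its activators, 4 were lower. Psmd14, the deubiquitinase of the lid that strips ubiquitin from bound substrates, had 2335, 2327 and 2278 in naive rats and 1793, 1287 and 1418 after SNT. Psmc6, an ATPase of the base that drives unfolding, had 2782, 2832 and 2850 in naive rats and 2238, 2064 and 1996 after SNT. Psmd12, a structural subunit of the lid, had 2230, 2470 and 2310 in naive rats and 1914, 1561 and 1875 after SNT. None of the 3 overlapped between groups, and SNT replicate 1 lay nearest to the naive libraries in each.

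Psmd14 had the largest fall of the proteasome genes, from 2314 ± 30.8 to 1499 ± 263 (ratio 0.648, log2 fold change -0.64, SE 0.12, adjusted p = 0.0073). Psmc6 fell to a ratio of 0.744 (-0.43, adjusted p = 0.00505), Psmd12 to 0.763 (-0.39, adjusted p = 0.0161) and Psmd9, an assembly chaperone of the base, to 0.808 (-0.31, adjusted p = 0.0213). Psmd9 was not called in the 17 M run, where its log2 fold change was -0.18. The lid subunit Psmd11 had a ratio of 1.00 (95% interval of the log2 fold change -0.16 to 0.17), and Psme4, an activator that can cap the core in place of the regulatory particle, one of 1.04 (-0.16 to 0.26). With libraries scaled to equal totals, Psma4 and Psmd9 were no longer called, 6 proteasome genes were lower, and Psmd11 (log2 fold change 0.17) and Psme4 (0.21) were called higher.

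Among the 4 conjugating enzymes changes were small and went both ways. Ube2g2, an E2 of degradation at the endoplasmic reticulum, had 381, 361 and 350 in naive rats and 385, 549 and 512 after SNT, of which replicate 1 lay just above the naive libraries. Ube2b, an E2 with a known role in DNA repair, had 3828, 3645 and 3712 in naive rats and 3098, 2938 and 3031 after SNT, without overlap. Ube2d3, which works with many ligases, had 6372, 6132 and 6305 in naive rats and 5667, 5403 and 5539 after SNT, also without overlap. Ube2b fell to a ratio of 0.811 (log2 fold change -0.30, adjusted p = 0.01), Ube2d3 to 0.883 (-0.18, adjusted p = 0.0704), and Ube2g2 rose to 1.32 (0.39, adjusted p = 0.0588), while Ube2g1 had 1.05 and no call.

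The call of Ube2d3 was lost without SNT replicate 2 or 3 or any naive library (adjusted p = 0.131 to 0.217) and in the 17 M run, and that of Ube2g2 without the same libraries (0.11 to 0.17). With equal totals Ube2b and Ube2d3 were not called (adjusted p = 0.103 and 0.847) and Ube2g1 was called higher (0.052). Reads that map to more than 1 place were discarded by the authors, so genes with near-identical copies or pseudogenes, which many E2 and proteasome genes have, may have lost reads.

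Of the 10 HECT, UBR, U-box and related ligases, 3 were lower and none higher. Ubr3, of a family with members that recognise destabilising amino termini, had 7204, 7433 and 6332 in naive rats and 4908, 3036 and 3475 after SNT. Ube3a, a ligase whose paternal copy is silenced in neurons and whose loss causes Angelman syndrome, had 2548, 2713 and 2499 in naive rats and 2026, 1734 and 1757 after SNT. Herc2, a very large HECT protein, had 7145, 7652 and 6428 in naive rats and 6469, 4749 and 5391 after SNT. Ubr3 and Ube3a did not overlap between groups, whereas Herc2 in SNT replicate 1 lay above naive replicate 3, the only overlap among the 42 called genes.

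Ubr3 fell from 6990 ± 581 to 3806 ± 979 (ratio 0.545, log2 fold change -0.90, SE 0.18, adjusted p = 0.00775), and Ube3a to a ratio of 0.711 (-0.49, adjusted p = 0.00557). Counting took no account of strand, so that reads of Ube3a and of its known antisense transcript cannot be told apart. Herc2 fell to 0.782 (-0.36, adjusted p = 0.0581), a call that was lost without SNT replicate 2 or 3 or naive replicate 1 or 2 (adjusted p = 0.14 to 0.168), in the 25 M run (0.107) and with equal totals (0.204). Genes without a call included Ube4b (0.852), Ubr2 (0.957), Herc4 (1.04), Nedd4 (1.05) and Ube2cbp (1.11, on a mean under 100 normalised counts). In Nedd4 the groups did not overlap although it was not called. With equal totals Herc4 and Nedd4 were called higher (adjusted p = 0.0361 and 0.0809).

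Of the 14 RING, RBR and TRIM ligases, 7 were higher and 4 lower, which is 7 of the 11 rises (9 of 22 with equal totals). Of all genes tested 29.2% were higher, and of the symbol list 35.2%. In all 14 the groups did not overlap, as in 62.1% of all genes tested and 75.8% of the symbol list. Rnf10, Rnf149 and Trim39 were among these 14 and had no call. Rnf19b, an RBR ligase with membrane anchors, had 638, 656 and 614 in naive rats and 981, 933 and 1036 after SNT. Trim35, a ligase studied in cell death and antiviral signalling, had 4271, 3934 and 4161 in naive rats and 5471, 6152 and 6317 after SNT. Rnf138, a ligase of DNA break repair, had 272, 189 and 232 in naive rats and 284, 385 and 337 after SNT. The rise of Rnf19b was of like size in the 3 SNT libraries, while for Rnf138 the lowest SNT library lay close to the highest naive library.

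Rnf19b rose from 636 ± 21.0 to 984 ± 51.7 (ratio 1.55, log2 fold change 0.63, SE 0.074, adjusted p = 0.00258), the largest rise among the 66 genes. Trim35 rose to a ratio of 1.45 (0.53, adjusted p = 0.00466) and Rnf138 to 1.45 (0.54, adjusted p = 0.0377). The other 4 rises were Rnf145, a sterol-regulated ligase of the endoplasmic reticulum (1.33), Rnf216 (1.24), Rnf111, which acts in TGF-beta signalling (1.2), and RNF4, which targets proteins that carry SUMO chains (1.2). Rnf216 and RNF4 were not called in the 25 M run (adjusted p = 0.103 and 0.22). Calls were lost without a library for Rnf138 (SNT replicate 2 or 3 or naive replicate 2, adjusted p = 0.103 to 0.109), Rnf216 (SNT replicate 2 or 3 or naive replicate 1 or 2, 0.121 to 0.155) and RNF4 (SNT replicate 3 or naive replicate 1 or 2, 0.102 to 0.134).

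The falls in this group included the largest of all. Trim9, a ligase of neurons that binds the netrin receptor DCC in axon branching, had 589, 659 and 525 in naive rats and 339, 92.3 and 135 after SNT. Trim2, which binds neurofilament light chain and whose loss causes an axonal neuropathy, had 2499, 2778 and 2278 in naive rats and 1906, 1206 and 1311 after SNT. Rnf146, which ubiquitinates proteins marked with poly(ADP-ribose), had 1632, 1594 and 1680 in naive rats and 1292, 1303 and 1260 after SNT. For Trim9 and Trim2, SNT replicate 1 stood well above the other SNT libraries, whereas for Rnf146 the 3 SNT libraries were alike.

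Trim9 fell from 591 ± 67.0 to 189 ± 132 (ratio 0.319, log2 fold change -1.86, SE 0.44, adjusted p = 0.0132), and its ratio was 0.192 when SNT replicate 1 was left out, which is more than 1.5 times lower. Its log2 fold change was -1.75 in the 25 M and -1.97 in the 17 M run. Trim2 fell to a ratio of 0.586 (-0.80, adjusted p = 0.0111), Rnf146 to 0.786 (-0.35, adjusted p = 0.00619) and Rnf19a, an RBR ligase, to 0.836 (-0.26, adjusted p = 0.0361). Rnf19a was not called without SNT replicate 3 or naive replicate 1 or 2 (adjusted p = 0.104 to 0.127), nor with equal totals (0.308). Rnf19a and its relative Rnf19b thus had ratios on opposite sides of 1. Rnf10 (0.912), Trim39 (1.11) and Rnf149 (1.16) had no call. With equal totals 9 genes of this group were higher, Trim39 and Rnf149 among them, and 3 lower.

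**Figure D2:**
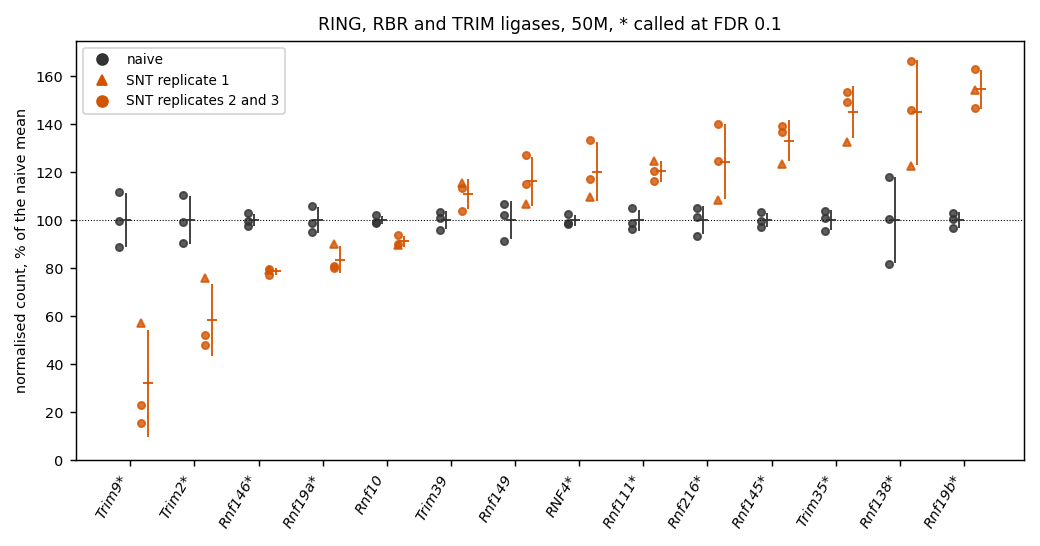
Normalised counts of the 14 RING, RBR and TRIM ligases in each library at 50 M, as a percent of the mean of the naive libraries (y axis), with the mean and SD of each group beside the points and SNT replicate 1 as a triangle. Trim9 and Trim2 are lowest in SNT replicates 2 and 3 and nearer to naive in SNT replicate 1, and Rnf19b is above all naive libraries in the 3 SNT libraries.

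Cullin-RING ligases use a cullin scaffold and exchangeable substrate receptors, which are F-box proteins for Cul1, BTB-Kelch proteins for Cul3 and SOCS-box proteins such as Asb8 for other cullins. Of these 14 genes, 6 were lower and 1, Fbxw8, was higher. Fbxo28, an F-box protein, had 1017, 1117 and 1015 in naive rats and 774, 580 and 646 after SNT. Klhl20, a BTB-Kelch receptor with known roles in autophagy and trafficking, had 1486, 1503 and 1466 in naive rats and 1135, 828 and 897 after SNT. Fbxo3, an F-box protein, had 2138, 2195 and 2231 in naive rats and 1819, 1560 and 1647 after SNT. In these genes the groups were well apart and SNT replicate 1 was the highest SNT library. Fbxw8, a receptor that works with Cul7, had 561, 565 and 524 in naive rats and 654, 599 and 664 after SNT, without overlap.

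Fbxo28 fell to a ratio of 0.635 (log2 fold change -0.66, SE 0.12, adjusted p = 0.00593), Klhl20 to 0.642 (-0.65, adjusted p = 0.00654) and Fbxo3 to 0.766 (-0.39, adjusted p = 0.00812). The scaffold Cul1 fell to 0.787 (-0.35, adjusted p = 0.00742), Fbxw11, a receptor of beta-catenin and other phosphorylated proteins, to 0.802 (-0.33, adjusted p = 0.0381) and Klhl29 to 0.819 (-0.28, adjusted p = 0.0424). Fbxw8 rose to 1.16 (0.21, adjusted p = 0.0601). Fbxw8 was not called in the 17 M run (adjusted p = 0.145) or without SNT replicate 3 or any naive library (0.11 to 0.18). Fbxw11 lost its call without naive replicate 1 or 2 (0.105 to 0.122), and Klhl29 without SNT replicate 2 or naive replicate 1 or 2 (0.102 to 0.134). Both were also not called with equal totals (0.187 and 0.289), under which 4 genes of the group were lower and 3 higher. Genes without a call, among them Fbxo34, Klhl7, Asb8, Fbxl5, Fbxo7 and Klhl22, had ratios between 0.862 and 1.06.

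Deubiquitinases and the SUMO protease Senp2 had the lowest median log2 fold change of the groups, -0.53, with 7 of 11 genes lower and 2 higher. Usp20, a deubiquitinase of receptors among other substrates, had 4289, 4705 and 4090 in naive rats and 3118, 2022 and 2258 after SNT. Usp14, which is bound to the proteasome and trims ubiquitin from its substrates, had 7256, 7410 and 7039 in naive rats and 5445, 3369 and 4047 after SNT. Usp46, known for deubiquitinating glutamate receptors, had 2654, 2661 and 2510 in naive rats and 1850, 1447 and 1608 after SNT. No values overlapped, and in all 3 genes SNT replicate 1 lay between the naive libraries and the other SNT libraries.

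Usp20 fell from 4361 ± 314 to 2466 ± 577 (ratio 0.565, log2 fold change -0.84, SE 0.16, adjusted p = 0.00718). Usp14 fell to a ratio of 0.593 (-0.78, adjusted p = 0.00988) and Usp46 to 0.627 (-0.68, adjusted p = 0.00401). Usp33, a relative of Usp20, fell to 0.645, Usp45 to 0.671, Usp9x, a large deubiquitinase known in neural development, to 0.70 and Senp2 to 0.790 (adjusted p = 0.0063 to 0.0267). Senp2 was not called with equal totals (adjusted p = 0.136), and the other 6 falls were still called.

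Usp28, a deubiquitinase of the DNA damage response, had 630, 679 and 654 in naive rats and 811, 896 and 859 after SNT. Otud5, of the ovarian tumour domain family, had 1734, 1743 and 1797 in naive rats and 1975, 2337 and 2290 after SNT. Both were above the naive libraries in all 3 SNT libraries. Usp28 rose to a ratio of 1.31 (log2 fold change 0.39, adjusted p = 0.00728) and Otud5 to 1.25 (0.32, adjusted p = 0.0191), while Usp48 (0.956) and Usp24 (1.13) had no call. With equal totals Usp24 was called higher (adjusted p = 0.0144).

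**Figure D3:**
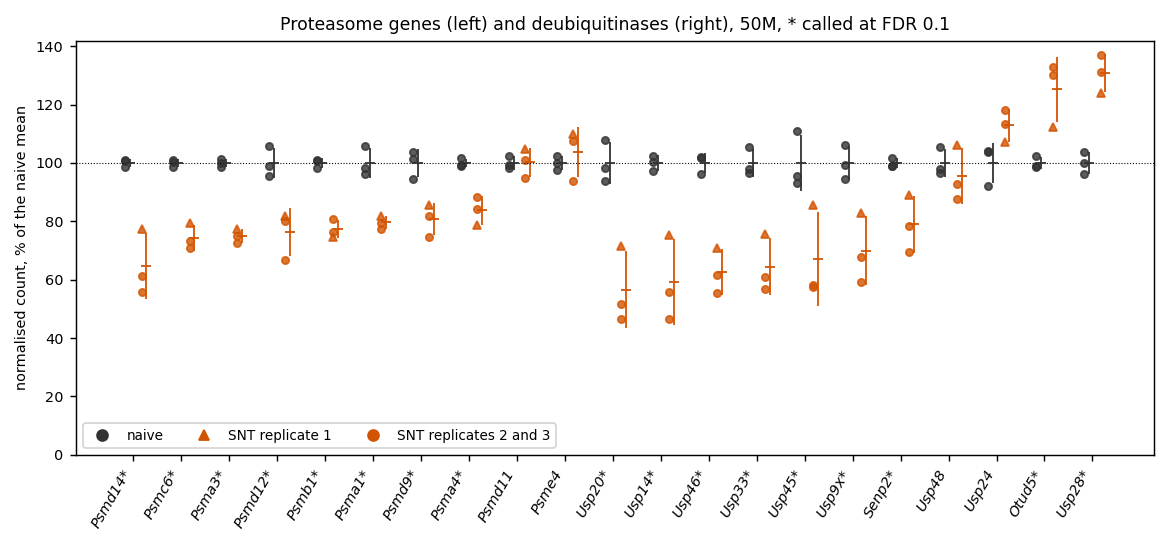
Normalised counts of the 10 proteasome genes and of the group of 11 deubiquitinases and SUMO protease genes in each library at 50 M, as a percent of the mean of the naive libraries (y axis), with the mean and SD of each group beside the points and SNT replicate 1 as a triangle. The core subunits lie close together in the 3 SNT libraries, whereas Psmd14, Usp20 and Usp14 are spread, with SNT replicate 1 nearest to the naive libraries.

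UBX proteins are cofactors that link the segregase p97 to ubiquitinated proteins. Ubxn4, a UBX protein anchored in the endoplasmic reticulum, had 2658, 2547 and 2626 in naive rats and 2356, 2324 and 2322 after SNT, without overlap. It fell to a ratio of 0.894 (log2 fold change -0.16, adjusted p = 0.0657). The call was lost in the 17 M run (adjusted p = 0.482), without SNT replicate 2 or 3 or any naive library (0.108 to 0.213) and with equal totals, where its log2 fold change was 0.00084. Ubxn2b (1.14) and Ubxn11 (0.995, on a mean under 100 normalised counts) had no call. With equal totals Ubxn2b was called higher (adjusted p = 0.0685).

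The other runs of the same libraries gave similar values. In the 25 M run 40 of the 66 genes were called (10 higher, 30 lower, against 55.9% of all genes tested) and in the 17 M run 39 (11 higher, 28 lower, against 52.3%). Of the 66 genes, 35 were called at all 3 depths, 27 of them lower and 8 higher, and 22 at none. The same shares over all genes tested are not given here, so these counts do not set the 66 genes apart from others. The 9 genes called at some depths were Psmd9, Ube2d3, Herc2, Rnf149, Rnf216, RNF4, Fbxw8, Usp24 and Ubxn4, and no gene was called in opposite directions. The median spread of a log2 fold change over the 3 depths was 0.07 and the largest was 0.54, for Ube2cbp. These runs share their RNA, so they measure the repeat of the sequencing and not of the animals.

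**Figure D4:**
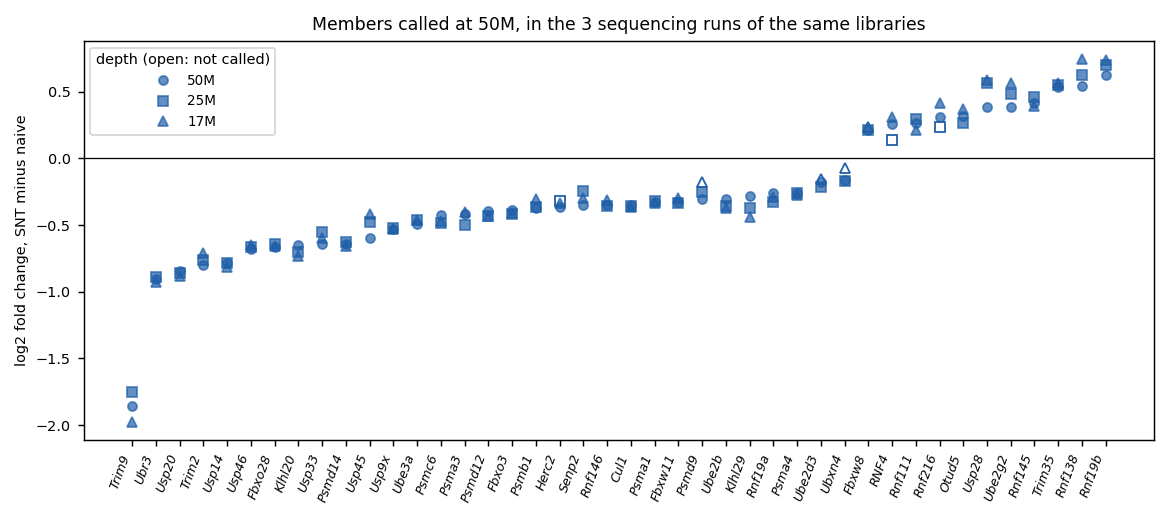
Log2 fold change (SNT minus naive, y axis) of the 42 genes called at 50 M in each of the 3 runs of the same libraries, as circles (50 M), squares (25 M) and triangles (17 M), filled where called at FDR 0.1 and open where not. The 3 symbols of a gene lie close together, and the open ones belong to 7 genes with small changes.

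The spread among the SNT libraries had a common form. SNT replicate 1 was the SNT library nearest to the naive mean in 28 of the 31 lower genes (90.3%) and in 8 of the 11 higher genes (72.7%), compared with 81.4% and 80.3% of all genes called lower and higher. At 25 M the shares were 76.7% of the lower and 80.0% of the higher genes, and at 17 M 82.1% and 100%, so that the 2 directions did not keep their order between runs. Without SNT replicate 1, 48 of the 66 genes (72.7%) were called, 13 higher and 35 lower, as were 64.5% of all genes tested in that fit and 78.2% of the genes of the symbol list. Leaving out any library changed no log2 fold change of a called gene by more than 1.5 times. Cell type markers also differed between the SNT libraries. The summed normalised counts of 12 sensory neuron markers were 446835 to 513956 in the naive libraries, 318283 in SNT replicate 1 and 174778 to 215528 in SNT replicates 2 and 3. Of these 12 markers 9 were lower, and Stmn2, Prph and Elavl3 had no call. Nefh weighed most in the sum: its mean was 203041 in the naive libraries and 56085 after SNT, whereas that of Stmn2 was 51785 and 58333. The sum therefore follows Nefh more than any other marker. Each lower marker had its highest SNT value in replicate 1.

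Markers of other cells rose. The sums of 6 myeloid markers were 10303 to 11133 in the naive, 21764 in SNT replicate 1 and 26485 to 42115 in the other SNT libraries, and 5 of the 6 were higher. The sums of 6 fibroblast and matrix markers were 48411 to 75913, 111217 and 169526 to 170924, and all 6 were higher. In the myeloid sum most of the spread among SNT libraries came from Gpnmb. It had 5770, 21283 and 7155 after SNT (replicates 1, 2 and 3), against a naive mean of 357. Of 7 Schwann and satellite glial markers 3 were higher and none lower, with overlapping sums. Every one of these markers had reads in all 6 libraries. The part of these shifts in the changes of the ubiquitin and proteasome genes was not tested. In a whole ganglion fewer cells of a type and less RNA of a gene per cell cannot be told apart.

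Other genes of the pathway that the naming rule did not take were listed by function. Of these 72 genes 45 were called, 36 lower and 9 higher, with a median log2 fold change of -0.22. Of all genes tested 58.5% were called, 29.4% lower and 29.2% higher. Of the symbol list, from which the 72 came, 71.4% were called, 36.2% lower and 35.2% higher. Calls of the 72 genes were not counted with equal totals. The largest fall was that of Ublcp1, a phosphatase that acts on the proteasome, to a ratio of 0.510 (log2 fold change -0.98, adjusted p = 0.00217), and the largest rise that of Peli2, a RING ligase of innate immune signalling, to 1.94 (0.96, adjusted p = 0.00466). A few others were picked for their function after their values were seen. Nfe2l1, a transcription factor that drives proteasome genes, fell to 0.597 (-0.76, adjusted p = 0.00682), and Psmf1, known as an inhibitor of the core particle, to 0.761 (-0.40, adjusted p = 0.00646). The COP9 signalosome subunits Cops2 (0.631), Cops3 (0.723) and Cops7a (0.789), which remove NEDD8 from cullins, fell, as did Uba3 (0.706), part of the E1 for NEDD8. Uchl1, an abundant deubiquitinase of neurons that is also among the sensory neuron markers above, fell to 0.665 (adjusted p = 0.019). The ligases Mdm2 (1.64) and Mdm4 (1.39), which restrain p53, and Smurf1 (1.88), which acts on BMP signalling, rose (adjusted p = 0.00598, 0.00593 and 0.0035).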

How the data were processed

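L5 DRG of 3 SNT and 3 naive pools were measured by RNA-seq of poly(A) enriched RNA at 3 depths. Reads were aligned by the authors to the rat genome Rn5 with Bowtie, reads with more than 1 location were discarded, and exonic reads were counted per Ensembl gene without regard to strand. The deposited values are a signal, normalised counts that the authors made by dividing read counts by DESeq size factors. All 18 columns were used. Whole reads were recovered from the steps of each column (100% of values whole, within 1e-09 of a read).

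Log2(normalised count + 1) was compared with limma 3.58.1 in R 4.3.3 with a variance trend, each depth alone, over genes with reads in at least 3 of 6 libraries. Intervals are 95% intervals. With 3 libraries against 3, an exact permutation test cannot give a two-sided p under 0.1. Symbols came from a supplementary list of the study that was available only in part, of which 1994 genes could be used. No gene lengths were at hand, so levels were not compared between genes. As alternatives, the pseudocount was set to 0.5 or 5, the filter was dropped or replaced by a mean of at least 10 normalised counts, and the variance trend was left out. Others were equal library totals, TMM, edgeR 4.0.16 (quasi-likelihood test) and DESeq2 1.42.0 on recovered reads, FDR 0.05, a replicate block, 3 runs summed, and leaving out each library. The fits were tested on simulated counts.

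Given by library were, in each role group, up to 3 called genes with the largest rise and up to 3 with the largest fall (mean of at least 20 normalised counts). The genes, lists and tests were chosen with earlier results of these data known. Some genes that enter the counts are not reported here by name. Exon arrays and intronic reads were not analysed here.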

Additional observations from a re-analysis of the deposited data

How the results depend on the processing

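Under 18 alternatives at 50 M, 27 of the 42 called genes (21 lower, 6 higher) kept their call and direction in every one. How many of all called genes did so is not given here. Scaling to equal library totals gave the largest change. With it 22 genes were higher at 50 M, 17 at 25 M and 17 at 17 M, and 18 were lower at 17 M. At 50 M normalised counts summed to 1.63e+07 to 1.69e+07 per SNT library and 1.82e+07 to 1.87e+07 per naive library. Scaling to equal totals therefore moved all values of SNT libraries up against naive ones. It also turned the sign of small values, with log2 fold changes of 0.0999 for Ubr2, 0.028 for Rnf10, 0.044 for Asb8, 0.066 for Fbxl5, 0.023 for Klhl7, 0.094 for Usp48, 0.15 for Ubxn11 and 0.00084 for Ubxn4. Ubxn11 was at 0.00933 with TMM and 0.00924 with edgeR, and Psmd11 and Ube2cbp at -0.0108 and -0.11 with the 3 runs summed. The cause was not tested.

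At FDR 0.05 1 E2 gene was called, and no UBX gene (0) was called at FDR 0.05, without a variance trend or with edgeR, which are calls near the threshold. Of all genes tested 56.9% were called without a trend and 57.8% with edgeR. The share at FDR 0.05 is not given here. In the fits without 1 library, 47.0% to 72.7% of the 66 genes were called. The shares were 47.8% to 64.5% of all genes tested and 58.7% to 78.2% of the symbol list, so calls in general became fewer or more. Leaving out 1 library gave 6 to 13 higher genes, 1 to 3 E2 genes, 2 to 5 HECT, UBR and U-box genes, 7 to 12 RING and TRIM genes, 4 to 9 cullin-RING genes and 0 to 1 UBX genes called. It moved the log2 fold changes of Psmd11 (-0.0297 to 0.0419), Ube2cbp (-0.0621 to 0.333) and Ubxn11 (-0.0221 to 0.0122) across 0.

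Replicate numbers did not pair the samples: deviations of same-numbered libraries from their group means correlated at 0.045, -0.3 and 0.14 over genes. With a replicate block 35 of the 66 genes (53.0%) were called, as were 52.8% of all genes tested, 8 of the 35 higher, with 1 E2 gene and 0 UBX genes.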
